A study of Mus musculus with 2 samples.

Results

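The 5 genes *Il4*, *Il5*, *Il13*, *Il9* and *Csf2* were picked by their symbols from the 31053 genes of the deposited count matrices. They encode 4 type 2 cytokines and GM-CSF, the granulocyte and macrophage growth factor. The scRNA-seq experiment has 1 library from old and 1 from young mice. Both groups carried the same genotype, MRL-*lpr*, a mutation of *Fas* on a strain in which lupus-like kidney disease develops with age. Each library came from the kidneys of several animals mixed before preparation, and both passed a density gradient, a magnetic pan-ILC enrichment and a sort of live cells before 10x 3′ v3.1 capture, so shares of cells are not frequencies in the kidney. With 1 library per age, no difference between ages has a replicate check, and all intervals below are exact 95% intervals that cover counting error only.

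Group 2 innate lymphoid cells (ILC2s) are tissue-resident lymphocytes without an antigen receptor that respond to alarmins such as IL-33. Upon stimulation they secrete IL-5, the growth factor of eosinophils, and IL-13, which acts on epithelium and macrophages, and they can make GM-CSF, IL-9 and some IL-4. Basophils and T helper 2 cells are other known sources of IL-4, and T cells also make GM-CSF.

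Barcodes passed with 200 or more genes and no more than 20% of UMIs (unique molecular identifiers, 1 per captured transcript) from mitochondrial genes, which left 11429 young and 10232 old cells with a median of 7881 and 6933 UMIs. The libraries shared 41 barcodes, of which 26 were kept in both. A cell was placed in a class by the marker genes it expressed, and none of the 5 cytokine genes was a marker. The ILC2 gate required at least 4 of 7 markers, no *Trac* UMI and at most 1 detected CD3 gene. It held 1475 young and 319 old cells, with a median of 5181 and 5513 UMIs. Young and old gated cells had *Gata3* in 97.8% and 98.7% and *Rora* in 97.6% and 97.8%, while *Foxp3* was found in 0 and 1 cell. The CD3 gene *Cd3g* was present in 14.3% and 10.3%. Although the study's methods describe female mice, cells with a Y-linked UMI and no *Xist* UMI made up 50.8% of the young and 40.6% of the old library, and the cytokine values are therefore also given within cells of each kind.

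Of the 5 genes 4 lie on chromosome 11 (GRCm38, GENCODE M21) in the order *Il4* (53602982 to 53618669, minus strand), *Il13* (53631324 to 53634702, minus strand), *Il5* (53720794 to 53725106, plus strand) and *Csf2* (54247271 to 54249667, minus strand). The start of *Il13* is 16.0 kb, that of *Il5* 102 kb and that of *Csf2* 631 kb from the start of *Il4*. *Il9* is on chromosome 13 (56479277 to 56482246, minus strand). The upstream sequences of the chromosome 11 genes are shown because UMIs of all 4 genes were detected in ILC2-gated cells, mostly of 1 gene per positive cell. Each is the 250 bases before the RefSeq start on GRCm38.p6, 5′ to 3′ on the strand of the gene, with matches to GATA or its reverse complement TATC in capitals. The windows are chr11:53618666-53618915, minus strand, for *Il4*, chr11:53634703-53634952, minus strand, for *Il13*, chr11:53720544-53720793, plus strand, for *Il5* and chr11:54249900-54250149, minus strand, for *Csf2*.
Il4: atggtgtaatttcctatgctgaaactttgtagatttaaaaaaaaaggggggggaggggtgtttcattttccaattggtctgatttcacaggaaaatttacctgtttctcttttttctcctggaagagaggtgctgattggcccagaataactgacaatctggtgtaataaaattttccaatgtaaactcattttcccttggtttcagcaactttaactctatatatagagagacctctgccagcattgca
Il13: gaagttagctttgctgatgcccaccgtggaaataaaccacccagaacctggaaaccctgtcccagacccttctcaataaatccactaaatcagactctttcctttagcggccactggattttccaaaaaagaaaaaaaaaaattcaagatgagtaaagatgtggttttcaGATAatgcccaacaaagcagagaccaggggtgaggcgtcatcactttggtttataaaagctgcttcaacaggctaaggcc
Il5: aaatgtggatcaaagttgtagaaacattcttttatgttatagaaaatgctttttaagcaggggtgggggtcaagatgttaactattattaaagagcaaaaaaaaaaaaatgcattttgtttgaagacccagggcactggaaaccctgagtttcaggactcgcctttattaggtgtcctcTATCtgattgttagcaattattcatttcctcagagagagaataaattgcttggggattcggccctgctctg
Csf2: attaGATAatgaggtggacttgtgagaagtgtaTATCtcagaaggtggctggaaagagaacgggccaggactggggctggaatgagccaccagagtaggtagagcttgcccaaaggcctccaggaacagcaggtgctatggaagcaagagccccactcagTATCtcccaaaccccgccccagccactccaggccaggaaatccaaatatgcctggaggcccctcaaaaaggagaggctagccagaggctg
GATA is the core motif of the factor encoded by *Gata3*. It had 1 match in the *Il13* window, 1 in the *Il5* window, 3 in the *Csf2* window and 0 in the *Il4* window. Of 32851 windows of this length, 53.6% held at least 1 match and 9.62% held at least 3. The RefSeq start of *Csf2* is 232 bases upstream of the GENCODE start, so its window does not reach the GENCODE start. The letters TGANTCA had no match in any of the 4 windows, and 6.75% of all windows held them. The window of *Il9*, not shown, held 1 TGANTCA match and 2 GATA matches.

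*Csf2* was the most abundant of the 5 transcripts in ILC2-gated cells, followed by *Il13*, *Il5* and *Il4*, in both libraries. Levels are UMIs of the gene per 1e+06 UMIs of the class (CPM). *Csf2* had 2164 UMIs in 590 of 1475 young cells, or 263 (252–274) CPM. In old cells it had 364 UMIs in 99 of 319, or 203 (183–225) CPM. For *Il13* the young level was 80.8 (74.8–87.2) CPM, from 666 UMIs, and the old level 72.6 (60.7–86.2) CPM, from 130 UMIs. *Il5* had 39.3 (35.2–43.9) and 28.5 (21.2–37.5) CPM, and *Il4* had 10.9 (8.79–13.4) and 11.7 (7.26–17.9) CPM. The intervals of these 4 genes did not overlap each other within either library. Each UMI counts a transcript once near its 3′ end, so these levels do not scale with gene length. *Il9* was all but undetected, with 1 UMI in 1 young ILC2-gated cell and none in any other kept cell of either library. For the old ILC2 gate, 0 of 319 cells at a limit of 3 counts allows a share of cells with a UMI of up to 0.940% and a level of up to 1.68 CPM, and cells that express the gene without a captured UMI are not counted by it.

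**Figure D1:**
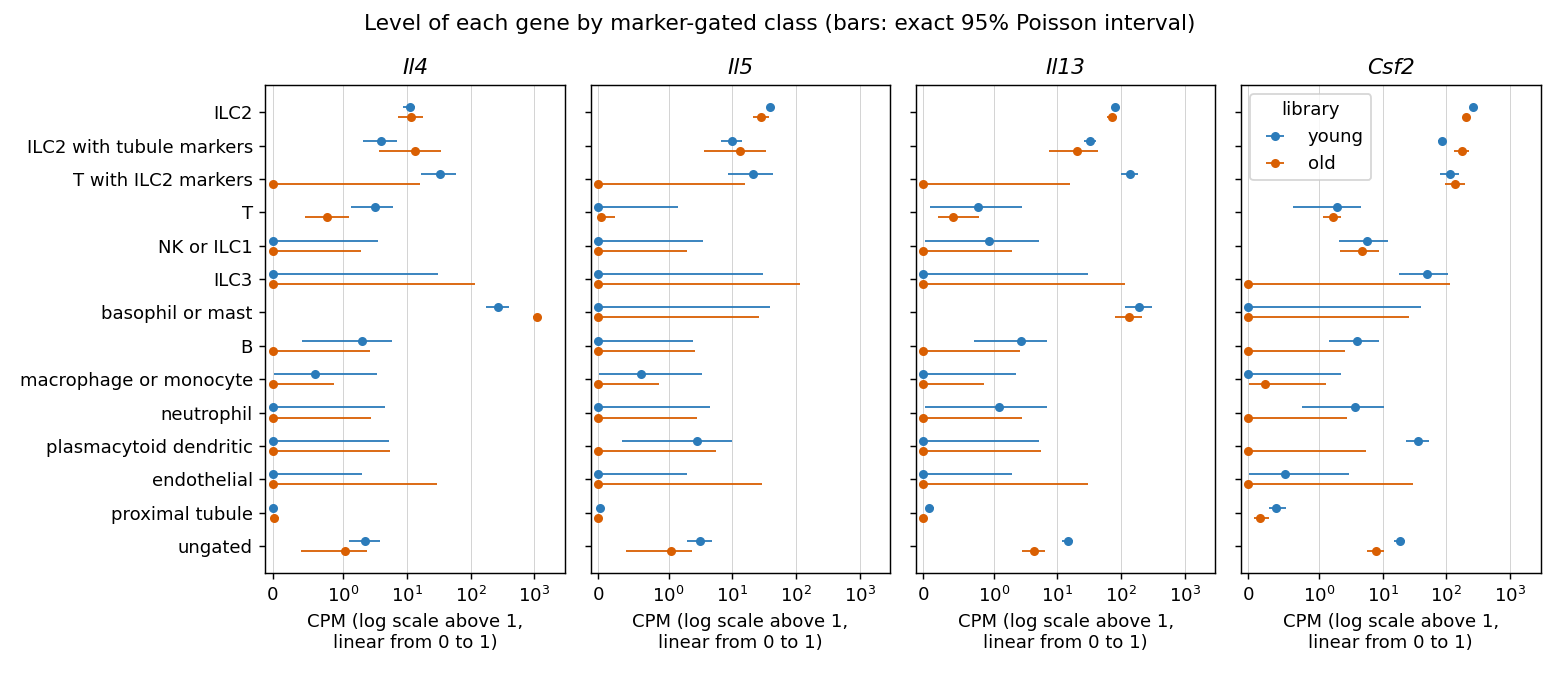
Level of each gene in CPM (x axis, logarithmic above 1 and linear below) in marker-gated classes of the young and old libraries, with points for the class and bars for the exact 95% Poisson interval. *Csf2* and *Il5* were highest in ILC2-gated cells, at 263 and 39.3 CPM in the young library, while *Il4* was highest in basophil or mast cells, at 268 CPM (young) and 1097 CPM (old).

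The 4 genes differed in how far ILC2-gated cells accounted for their transcripts. These cells held 81.8% of all *Il5* UMIs of the young and 82.3% of those of the old library. For *Csf2* the shares were 80.6% and 65.1%, and for *Il13* 70.6% and 68.4%. For *Il4* they were 49.2% and 10.0%. Proximal tubule cells served as a comparison class. Whether their UMIs of these genes came from free RNA or, for *Csf2*, from injured tubule cells was not tested. Of 6122 young proximal tubule cells 0.588% had *Csf2*, and of 3534 old ones 0.141%, at a median depth of 15244.5 and 15686 UMIs. *Il13* had a UMI in 0.114% of the young ones and in none of the old ones. The detected shares in ILC2-gated cells were 40.0% and 31.0% for *Csf2*, 16.0% and 11.3% for *Il13*, 15.5% and 7.52% for *Il5* and 5.15% and 6.27% for *Il4*. At a common depth of 1000 UMIs per cell, which left out 7 young and 4 old ILC2-gated cells, the shares were 16.0% and 12.9% for *Csf2*, 5.31% and 3.95% for *Il13*, 3.34% and 2.16% for *Il5* and 1.15% and 1.13% for *Il4*. Proximal tubule cells at that depth had *Csf2* in 0.0622% and 0.0411%.

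*Il4* was most strongly expressed in basophil or mast cells, which carry preformed effector molecules and respond through the high-affinity IgE receptor. In this small class 25 *Il4* UMIs were found in 11 of 17 young cells, 268 (173–396) CPM, and 156 UMIs in 11 of 12 old cells, 1097 (932–1283) CPM. Of the 156 old UMIs, 2 cells held 89 and 48. The same class expressed *Il13*, at 193 (114–305) CPM from 18 UMIs in 6 young cells and at 134 (80.4–209) CPM from 19 UMIs in 3 old ones. All 3 old cells with *Il13* and 3 of the 6 young ones also had *Il4*. No UMI of *Il5* or *Csf2* was found in the 29 cells, which at 3 counts allows up to 32.2 CPM in the young class.

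T cells, which outnumbered ILC2s in the old library, had these transcripts in a small share of cells. Among 3995 old T cells *Csf2* had 38 UMIs in 29 cells (1.64 CPM), *Il4* 18 UMIs in 12 cells, *Il13* 10 UMIs in 4 cells and *Il5* 1 UMI. They held 8.61% of all old *Il4* UMIs, close to the 10.0% of the ILC2 gate. For *Csf2*, *Il13* and *Il5* they held 6.80%, 5.26% and 1.61%. Of all old positive cells, T cells were 21.4% for *Il4* and 16.9% for *Csf2*, and ILC2-gated cells 35.7% and 57.6%. Among 482 young T cells *Il4* had 8 UMIs, *Csf2* 5, *Il13* 2 and *Il5* none. Among old T cells without *Foxp3*, 11 of 1063 with *Cd4* alone (1.03%) and 12 of 1135 with *Cd8a* or *Cd8b1* alone (1.06%) had *Csf2*, and 3 of 1582 with no coreceptor UMI (0.190%) did. These shares are not adjusted for depth, with a median of 5167, 5960 and 3867 UMIs in the same order. At the common depth used above they were 0.286%, 0.138% and 0.0543%, from 3.03, 1.56 and 0.844 cells. The *Csf2* levels were 2.93 (1.74–4.64), 1.58 (0.842–2.70) and 0.423 (0.0871–1.23) CPM, and the *Cd8a* or *Cd8b1* interval overlapped both others. Old proximal tubule cells, with a median of 15686 UMIs, had *Csf2* in 0.141%, and at the common depth in 0.0411%. The part of free RNA in any of these shares was not tested. NK or ILC1 cells had *Csf2* in 6 of 203 young and 8 of 268 old cells, and ILC3s in 4 of 16 young and 0 of 4 old cells.

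Cells with both T and ILC2 markers were a separate group of 43 young and 20 old cells. *Csf2* was found in 14 young (114 CPM) and 5 old cells (137 CPM), and a single old cell held 24 of its 32 UMIs. *Il13* reached 138 CPM in the young cells, but 1 cell with 37 UMIs held 80.4% of it, together with 5 *Il4* and 3 *Il5* UMIs. No *Il4*, *Il5* or *Il13* UMI was found in the 20 old cells. Cells with ILC2 and proximal tubule markers, 170 young and 14 old, had a median of 14440 and 21021 UMIs, and their *Csf2* level was 85.1 (75.0–96.1) and 174 (130–228) CPM. One young plasmacytoid dendritic cell held 26 *Csf2* UMIs with 2 *Il5* UMIs, and it was the only one of 83 with the gene.

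Within the ILC2 gate, transcripts of *Csf2* and *Il13* were concentrated in few cells, whereas *Il4* was spread thinly. In young cells *Csf2* ranged from 1 to 66 UMIs per positive cell with a median of 2, and 79 of 590 cells (13.4%) held 50% of the UMIs. *Il13* ranged from 1 to 24 UMIs with a median of 1, and 33 of 236 cells (14.0%) held 50%. For *Il5* the highest cell had 6 UMIs and 67 of 229 cells (29.3%) held 50%. For *Il4* the highest cell had 3 UMIs, and 84.2% of the 76 cells had a single UMI. Old cells showed the same order for *Il13* and *Il4*: 4 of 36 *Il13* cells (11.1%) held 50% of the UMIs, with 26 UMIs in the highest, and 19 of 20 *Il4* cells had 1 UMI. *Csf2* in old cells reached 20 UMIs and 17 of 99 cells (17.2%) held 50%, and for *Il5*, with up to 9 UMIs, 6 of 24 cells (25.0%) did. A gene with about 1 UMI per positive cell cannot show concentration at this depth.

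**Figure D2:**
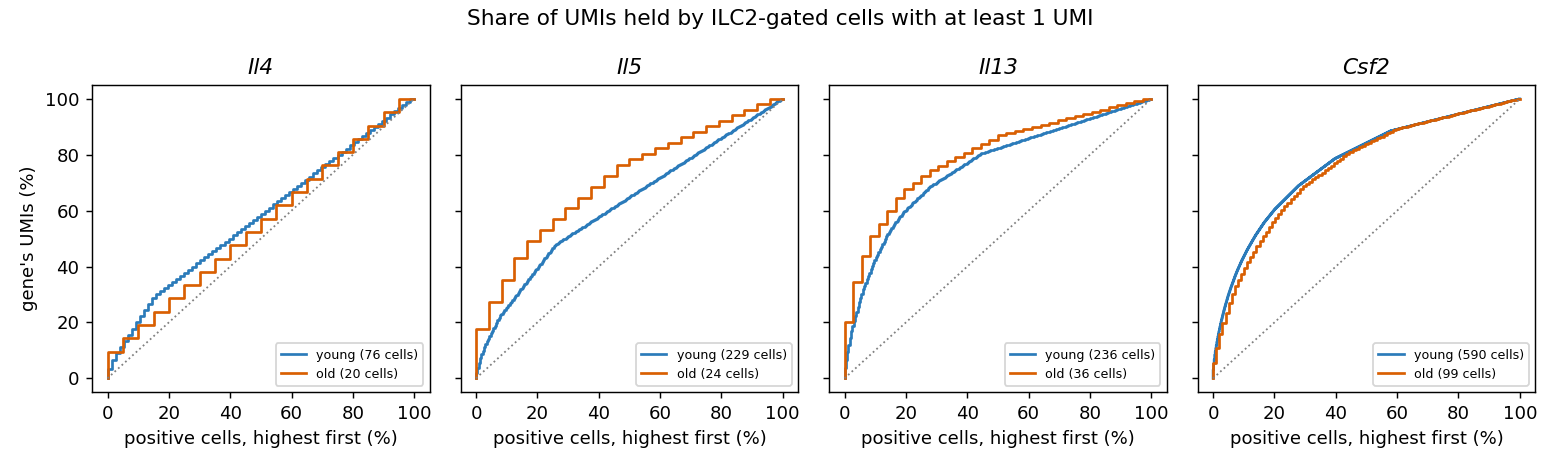
Cumulative share of a gene's UMIs (y axis, %) over ILC2-gated cells with at least 1 UMI, ordered from the highest cell (x axis, %), for both libraries; the dotted line marks equal UMIs in each cell. The curves of *Csf2* and *Il13* rise steeply, with 13.4% and 14.0% of positive young cells holding 50% of the UMIs, while that of *Il4* stays near the line.

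The highest cells of a gene differed in whether they held the other genes. The 3 young cells with the most *Csf2*, at 66, 44 and 36 UMIs, had no UMI of *Il4*, *Il5* or *Il13*. The next 2 ILC2-gated cells, at 34 and 27 UMIs, had 8 and 7 *Il13* UMIs. The young ILC2-gated cell with the most *Il13*, 24 UMIs, had 3 *Il5* UMIs, 1 *Il4* UMI and no *Csf2*, and the next, with 20, had none of the others. In the old library the cell with 26 *Il13* UMIs had 2 of *Il5* and 2 of *Csf2*, and the cell with the most *Il5*, 9 UMIs, had 12 of *Il13* and 6 of *Csf2*.

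In most ILC2-gated cells with any of the 4 genes, only 1 of them was detected. Transcripts without a captured UMI are missed, so these counts do not give the number of genes a cell expressed. At least 1 was detected in 56.6% (54.0–59.2%) of young and 44.2% (38.7–49.8%) of old cells, and at least 2 in 17.0% (15.1–19.0%) and 9.72% (6.70–13.5%). *Csf2* without the other 3 was the most frequent pattern, with 380 of 835 positive young cells (45.5%) and 73 of 141 old cells (51.8%). Next in the young library were *Il5* alone (90 cells), *Il13* alone (88), *Il5* with *Csf2* (75) and *Il13* with *Csf2* (74). All 4 genes were found together in 2 young and 0 old cells. Median depth rose with the number of genes found, from 4700.5 UMIs in young cells with none to 5931 in those with 2 or more, and from 5083.5 to 6720 in old cells.

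*Il13* was detected more often in ILC2-gated cells with *Il5* or *Il4* than in those without. In the young library 57 of 229 *Il5*-positive cells had *Il13* (24.9%, 19.4–31.0%), against 14.4% (12.5–16.4%) of *Il5*-negative cells. The 57 cells compare with 36.6 for independent detection and with 42.5 for independent detection within each of 10 bins of cells by depth, a ratio of 1.34. *Il4* and *Il13* were found together in 22 young cells, 1.72 times the 12.8 within depth bins, and 28.9% (19.1–40.5%) of *Il4*-positive against 15.3% (13.4–17.3%) of *Il4*-negative cells had *Il13*. These are the pairs whose intervals did not overlap, and no test was made. The intervals are not adjusted for depth, with a median of 6106 UMIs in *Il5*-positive and 5023.5 in *Il5*-negative young cells. With positive cells defined by 2 UMIs or more, the intervals overlapped for *Il5* with *Il13*, at 13.3% (5.94–24.6%) against 6.93% (5.66–8.38%). They also overlapped for *Il4* with *Il13*, at 16.7% (2.09–48.4%) against 7.11% (5.84–8.55%), from 2 joint cells. By contrast, *Il4* and *Il5* were found together in 12 young cells, 0.94 times the count within depth bins.

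In the young library the joint counts of *Csf2* lay nearer to those within depth bins than the counts of *Il13* with *Il5* or *Il4*. A gene detected in 40.0% of cells, as *Csf2* was, leaves less room for a high ratio than *Il13* in 16.0%. In young cells the joint counts of *Csf2* were 105 with *Il5*, 111 with *Il13* and 36 with *Il4*, or 1.03, 1.11 and 1.14 times those within depth bins, and the intervals with and without the partner overlapped for all 3. With *Il13* they were closest to parting, at 47.0% (40.5–53.6%) against 38.7% (35.9–41.4%). The old library has few cells for these counts. *Il4* with *Il13* was seen in 7 old cells, 2.45 times the count within depth bins, and 35.0% (15.4–59.2%) of *Il4*-positive against 9.70% (6.59–13.6%) of *Il4*-negative cells had *Il13*. *Il5* with *Il13* was seen in 4 old cells, 1.16 times the count within depth bins, with wide overlap of the intervals. *Csf2* was seen with *Il5*, *Il13* and *Il4* in 10, 14 and 9 old cells. These were 1.21, 1.14 and 1.29 times the counts within depth bins, and the intervals overlapped, so the young order of the pairs was not seen in full. Averaged over all draws of 2000 UMIs per cell, *Il5* and *Il13* were found together 1.66 times as often as for independent detection in young and 2.50 times in old cells, from 13.6 and 1.92 joint cells, and *Csf2* with *Il5* 1.09 and 1.31 times.

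**Figure D3:**
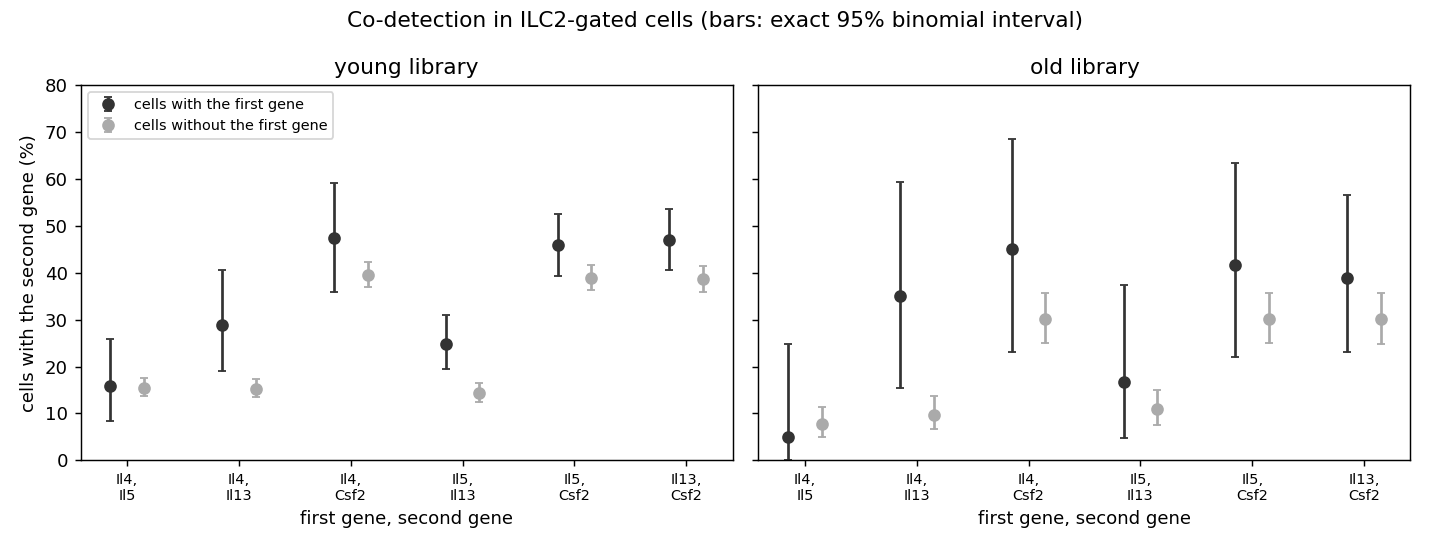
Share of ILC2-gated cells with the second gene (y axis, %) among cells with the first gene (dark) and without it (grey) for 6 pairs in each library, with exact 95% binomial intervals. In the young library *Il13* was detected in 24.9% of cells with *Il5* and in 14.4% of cells without, and in the old library it was detected in 35.0% of cells with *Il4* and in 9.70% of cells without.

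The level of *Il13* was higher in young cells with 1 *Il5* UMI than in those with none, and at more *Il5* UMIs it rested on few cells. Young ILC2-gated cells with 0, 1, 2 or 3, and 4 or more *Il5* UMIs had *Il13* at 68.5, 130, 124 and 281 CPM, and *Csf2* at 270, 235, 223 and 193 CPM. In the step of 2 or 3, 1 cell held 24 of 44 *Il13* UMIs, and without it the level was 58.9 (36.0–91.0) CPM, below the 65.7 CPM of cells without *Il5* less their own highest cell. With 1 *Il5* UMI it was 116 (96.7–138) CPM without the highest cell. The last step holds 8 cells, and its intervals were 161–457 CPM for *Il13* and 96.5–346 CPM for *Csf2*. By the same steps of *Il13* UMIs, *Il5* stood at 34.4, 51.1, 78.6 and 62.3 CPM and *Csf2* at 266, 202, 210 and 364 CPM. In the 46 cells of the last step, 2 cells held 61 of the 146 *Csf2* UMIs, and without them its level was 223 (178–275) CPM, against 250 (239–263) CPM in cells without *Il13* less their 2 highest cells.

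Between the libraries the 4 levels in ILC2-gated cells differed by less than 1.5-fold. The log2 ratio of CPM, old over young, was −0.37 (−0.53 to −0.21) for *Csf2*, −0.47 (−0.92 to −0.04) for *Il5*, −0.16 (−0.44 to 0.12) for *Il13* and 0.10 (−0.66 to 0.80) for *Il4*. None of the 4 lay past 1.5-fold in either direction, against 6.33% of 9280 genes at least 1.5-fold higher and 10.4% at least 1.5-fold lower in old cells, and the median log2 ratio over these genes was −0.05. Single cells weighed on the smaller counts: without the highest cell of each library the log2 ratio was −0.71 (−1.21 to −0.24) for *Il5*, which is past 1.5-fold, and −0.42 (−0.74 to −0.12) for *Il13*, whose interval then lay below 0. As the mean of the CPM of each cell, *Il5* was at −0.72 and *Il13* at 0.01. The gate mattered too: with 1 ILC2 marker more, *Il13* was at −0.33 (−0.65 to −0.02) and *Il5* at −0.44 (−0.93 to 0.02). Under the rule of at least 2 of 4 markers and no CD3 UMI, they were at −0.39 (−0.68 to −0.11) and −0.47 (−0.93 to −0.04). The interval of *Csf2* lay below 0 under both gates. *Il4* in basophil or mast cells had a log2 ratio of 2.03 (1.42 to 2.70), which rests on the 2 old cells with 89 and 48 UMIs.

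The levels of the 4 genes differed with the sex-linked transcripts of the cells, a split chosen after these values were seen. *Il5* was higher in ILC2-gated cells with *Xist* and no Y-linked UMI, at 56.0 (46.9–66.3) CPM for 381 young and 57.8 (38.4–83.5) CPM for 84 old cells. In those with a Y-linked UMI and no *Xist* it was 35.4 (29.98–41.6) CPM for 745 young and 15.3 (8.57–25.3) CPM for 174 old cells. The young log2 ratio of the former over the latter was 0.66 (0.31 to 1.01), and the old one 1.92 (0.96 to 2.93). *Csf2* went the other way, with −0.53 (−0.69 to −0.37) and −1.14 (−1.59 to −0.71), as did *Il13*, with −0.33 (−0.59 to −0.08) and −1.87 (−2.83 to −1.03), and *Il4*, with −1.22 (−2.14 to −0.39) and −1.98 (−5.15 to 0.10). Of the 4, *Il5* and *Il4* in young and all in old cells lay past 1.5-fold. In the young library 0.897% of 4015 genes were at least 1.5-fold higher and 2.42% at least 1.5-fold lower in cells with *Xist*, and in the old library 5.35% and 8.14%, with 0.523% higher and 1.1% lower in both. The 4015 genes had at least 50 UMIs over both kinds of cell in each library, which *Il4* and *Il5* did not reach in the old one. Old *Il13* in cells with *Xist* rests on 13 UMIs in 2 cells, and without the highest cell of each kind its log2 ratio was −5.09. Sex and the individual animals that were pooled cannot be told apart here, and the median depth was 5104 and 5987 UMIs for young cells with a Y-linked UMI and with *Xist*. The 320 young cells with neither had a median of 4466 UMIs. Their levels were 23.0 CPM for *Il5*, 334 for *Csf2*, 53.0 for *Il13* and 8.37 for *Il4*, and the part of depth was not tested. In young cells with a Y-linked UMI and with *Xist*, the detected shares were 41.1% and 40.2% for *Csf2* and 16.9% and 16.0% for *Il13*. They were 13.2% and 26.0% for *Il5* and 6.98% and 3.15% for *Il4*. In old cells the shares were 35.6% and 21.4% for *Csf2* and 14.4% and 2.38% for *Il13*. For *Il5* they were 4.60% and 14.3%, and for *Il4* 8.62% and 2.38%.

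**Figure D4:**
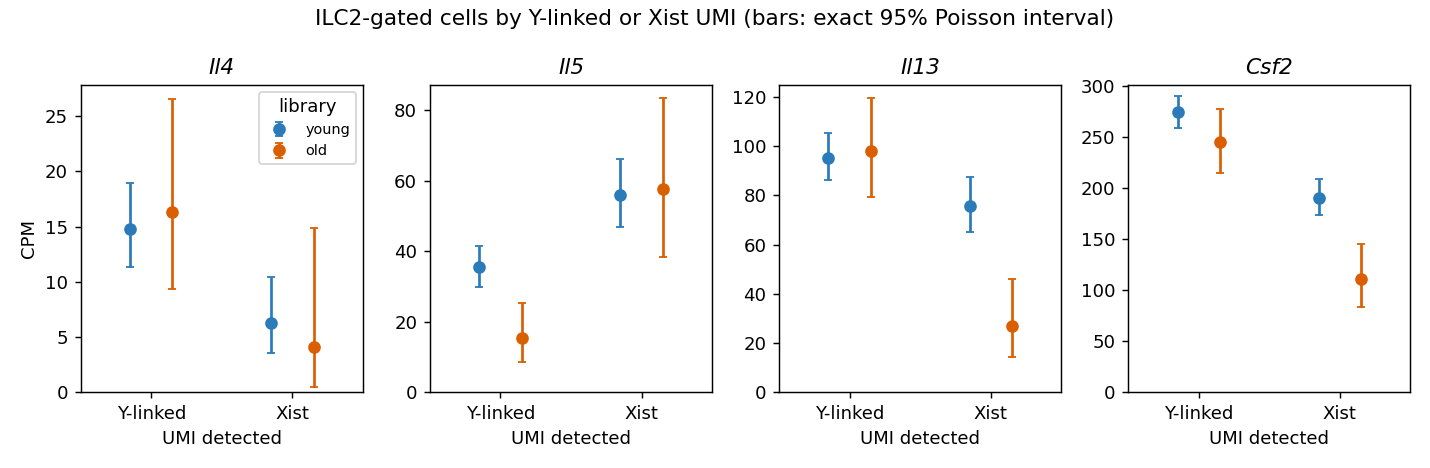
Level of each gene in CPM (y axis) in ILC2-gated cells with a Y-linked UMI and no *Xist* UMI and in those with an *Xist* UMI and no Y-linked UMI, for both libraries, with exact 95% Poisson intervals. *Il5* was higher in cells with *Xist*, at 56.0 CPM (young) and 57.8 CPM (old), and the other 3 genes were lower there.

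Within these kinds of cell the values of the ratio between the ages differed, but the intervals of both kinds parted only for *Il13*. For *Il5* the log2 ratio, old over young, was −1.21 (−2.08 to −0.44) in cells with a Y-linked UMI and 0.05 (−0.60 to 0.64) in those with *Xist*. For *Il13* it was 0.04 (−0.30 to 0.36) and −1.50 (−2.44 to −0.69), and for *Csf2* −0.17 (−0.37 to 0.04) and −0.78 (−1.21 to −0.37). Old *Il13* in cells with *Xist* rests on 13 UMIs in 2 cells, and old *Il5* in cells with a Y-linked UMI on 15 UMIs in 8 cells. *Il5* and *Il13* were found together in 31 young cells with a Y-linked UMI, against 20.03 for independent detection within 10 bins of depth, and 31.6% (22.6–41.8%) of *Il5*-positive against 14.7% (12.04–17.6%) of *Il5*-negative cells had *Il13*. In young cells with *Xist* the joint count was 20 against 16.8, and the shares of 20.2% (12.8–29.5%) and 14.5% (10.6–19.2%) had overlapping intervals.

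In the young library few genes differed between ILC2-gated cells with and without a given cytokine. Of 4631 genes, 0.194% were at least 1.5-fold higher in young cells with *Csf2*, 0.821% in those with *Il13* and 0.691% in those with *Il5*, while 0.432%, 0.885% and 1.47% were as much lower. In the smaller old library 2.94%, 8.08% and 11.6% were higher and 4.6%, 10.0% and 12.1% lower. The genes named next were chosen after their values were seen. The leading genes were often carried by a single cell. *Igkc*, an antibody light chain gene, had a log2 ratio of 7.12 in old *Csf2*-positive cells because 1 cell held 14129 UMIs, and 0.02 without it. *Lyz2*, a myeloid lysozyme gene, led in young *Il13*-positive cells through 1 cell with 458 UMIs. *Lgals1*, which encodes galectin-1, had a UMI in 66.8% of young *Il5*-positive against 38.7% of *Il5*-negative cells, and in 50% against 18.0% of old cells, and its log2 ratio without the highest cell was 0.74 (0.62 to 0.86) and 0.66 (−0.07 to 1.33). *Xist* itself had a UMI in 46.3% and 54.2% of young and old *Il5*-positive cells, against 24.4% and 26.4% of *Il5*-negative cells. Its log2 ratio without the highest cell was 0.67 (0.56 to 0.78) and 1.21 (0.94 to 1.47). The shares are not adjusted for depth, with a median of 6106 against 5023.5 UMIs in young and 5993 against 5421 in old cells. For *Xist* they restate the split above in the same cells.

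Of the receptors of these cytokines, *Il9r* and *Il2rg* were abundant in ILC2-gated cells, and those for GM-CSF and IL-13 were higher in other classes. Of 9 receptor genes 4 were above 10 CPM in ILC2-gated cells of both libraries. These were *Il2rg*, the common gamma chain (425 and 563 CPM), *Il9r*, the receptor of IL-9 (85.5 and 67.0 CPM, in 35.0% and 29.5% of cells), *Il4ra* (16.6 and 27.4 CPM) and *Csf2ra* (10.8 and 14.5 CPM). *Csf2rb*, the signalling chain that IL-3, IL-5 and GM-CSF share, was at 0.607 and 0.559 CPM in ILC2-gated cells. It stood at 149 and 260 CPM in macrophages or monocytes, at 172 and 274 CPM in neutrophils and at 708 and 647 CPM in basophil or mast cells. *Csf2ra*, the binding chain for GM-CSF, was at 293 and 273 CPM in macrophages or monocytes. *Il13ra1* was at 87.7 and 69.8 CPM in macrophages or monocytes and at 27.3 and 27.9 CPM in proximal tubule cells. *Il5ra*, the IL-5 binding chain, had no UMI in ILC2-gated cells and its highest level in a class of over 100 cells was 9.91 CPM, in young B cells.

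Of 8 regulators 7 were above 10 CPM in ILC2-gated cells of both libraries, with *Spi1*, a myeloid factor, the exception at 2.91 and 5.59 CPM. *Gata3* was at 1005 and 1407 CPM, *Rora* at 1423 and 1477 CPM, *Bhlhe40* at 1011 and 1111 CPM and *Nfkb1* at 1027 and 1076 CPM. In basophil or mast cells *Gata3* had no UMI in the young and 1 in the old class. Of the 4 neighbouring genes, *Rad50*, which lies between *Il13* and *Il5*, was at 139 and 130 CPM in ILC2-gated cells, *Irf1* at 84.0 and 222 CPM and *Kif3a* at 25.7 and 16.8 CPM, whereas *Il3*, beside *Csf2*, had no UMI in any class with pathway values.

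Across 24 points, 12 classes in each of 2 libraries, the levels most like those of *Il4* were of *Fcer1a* (Pearson r of log2(CPM + 1) of 0.90) and *Il13* (0.90), followed by *Cpa3* (0.88), *Tax1bp1* (0.84) and *Htr1b* (0.83). *Csf2* was most like *Calca* (0.97), *Stab2* (0.95), *Vipr2* (0.93), *Mmp16* (0.93) and *B3galt2* (0.92). For *Il5* these were *Tmem35a* (0.96), *Olfr48* (0.96), *Grhl2* (0.95), *1700061F12Rik* (0.94) and *9230102O04Rik* (0.93), and for *Il13*, after *Il4*, *Ero1l* (0.89), *Cpa3* (0.88), *Tuba8* (0.88) and *Klf5* (0.88). The points of a library share its depth and preparation, so these values are descriptive. The named genes are the first of 14642 compared. *Il5* and *Csf2* were mostly low outside the ILC2-gated and mixed ILC2 classes, so any gene found mainly in those classes reaches a high r.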

How the data were processed

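The deposited matrices hold raw UMI counts that the authors obtained on mm10 with Cell Ranger (3.1.0 per the file headers). Barcodes below 200 genes or above 20% mitochondrial UMIs were dropped, which left 145647185 young and 119218130 old UMIs. The members and gene lists were chosen with earlier results of these data known, and the thresholds of the gates were set after the cells were seen, in place of looser ones (any CD3 UMI excluded, 2 markers enough). A class required at least 3 markers and 40% of its list (60% for T, proximal tubule and erythroid cells), T cells also *Trac* or 2 CD3 genes, and a cell that qualified for several classes took that with the highest share and stayed ungated at a tie, except that cells with T and ILC2, ILC2 and proximal tubule, or other leukocyte and tissue markers formed mixed classes. The thinned values are the mean over all draws, computed from the hypergeometric distribution, and were adopted after repeats of a single random draw gave differing joint counts. The split by *Xist* and Y-linked UMIs was also chosen after the data were seen. Intervals are exact Poisson for CPM, Clopper-Pearson for shares and binomial for ratios. No p-values were computed. Named genes were the 5 members, fixed receptor, neighbour and regulator genes, and the 5 genes of most similar level among those with at least 100 UMIs. Leading genes of cells with a cytokine were drawn from the first 10. The ranking step was run on simulated counts of 8886 genes, for young ILC2-gated cells with over without *Csf2*, a wider set than the 4631 genes ranked. There 98% of genes raised and 93% of genes lowered 2-fold passed 1.5-fold, as did 2.30% of unchanged genes. The counts were drawn as sums over cells without spread between cells, so this run cannot show how genes carried by 1 cell rank. It was not made for *Il13*, *Il5* or the old library. Doublets were called with Scrublet in Scanpy 1.11.5 and kept. Python 3.11.15, NumPy 2.4.6, pandas 2.3.3, SciPy 1.17.1 and Matplotlib 3.10.9 were used. Promoters came from RefSeq on GRCm38.p6 and positions from GENCODE M21.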

Additional observations from a re-analysis of the deposited data

How the results depend on the processing

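Of 196 values of 32 results recomputed under 16 alternatives, 159 stayed within the counting interval of the value reported. No paired analysis was possible because each age has 1 library. Scrublet called 8 young and 1 old ILC2-gated cell doublets, and removing them, limiting mitochondrial UMIs to 10% or requiring 500 genes moved none of the values outside its interval. With 1 ILC2 marker more, *Csf2* in young cells was 278 CPM. Under the rule of at least 2 of 4 markers and no CD3 UMI, the young levels were 8.77 CPM for *Il4*, 29.996 for *Il5*, 67.7 for *Il13* and 196 for *Csf2*, and old *Il13* and *Csf2* were 51.8 and 166 CPM. The mean of the CPM of each cell was 70.8 for young *Il13*. With a total free of *Malat1* and of hemoglobin, ribosomal protein and mitochondrial genes, levels were 15.6, 56.3, 116 and 376 CPM for young *Il4*, *Il5*, *Il13* and *Csf2* and 40.6, 103 and 290 CPM for old *Il5*, *Il13* and *Csf2*. Without its highest cell old *Il13* was 58.2 CPM. At 2 UMIs or more, 13.3% of young *Il5*-positive cells had *Il13*, with an interval that overlapped that of *Il5*-negative cells, and 7.55% of *Il13*-positive cells had *Il5*. Leaving out the 1 or 2 highest cells of each step, also chosen after the data were seen, moved *Il13* at 2 or 3 *Il5* UMIs to 58.9 and 35.9 CPM and *Csf2* at 4 or more *Il13* UMIs to 290 and 223 CPM. Thinned to 500, 1000 and 2000 UMIs, 5.50%, 9.63% and 14.8% of young *Il5*-positive cells had *Il13*. Of young *Il13*-positive cells, 3.28%, 6.06% and 10.7% had *Il5*, as fewer UMIs detect fewer cells. Within cells with a Y-linked UMI and no *Xist*, a choice made after the data were seen, the log2 ratio of old over young was −1.21 for *Il5* and −0.17 for *Csf2*. In cells with *Xist* and no Y-linked UMI it was 0.046 for *Il5*, with the opposite sign to the value over all cells, −1.50 for *Il13* and −0.78 for *Csf2*, and the cause was not tested. Depth limits *Il9*, with 1 UMI in all, and *Il4*, with 21 UMIs in old ILC2-gated cells.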
